A study of Mus musculus with 9 samples.

Results

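The genes described here are 34 genes of glucose uptake, glycolysis, lactate handling, pyruvate oxidation and glycogen metabolism, out of the 55704 genes of a bulk RNA-seq table. They were found by Ensembl identifier through their symbols, and all 34 were in the table. Neural stem cells (NSCs) had been taken from the subventricular zone of C57BL/6 mice of 8-9 weeks, with 2 female and 2 male mice pooled for each isolation, and grown for at least 3 passages in medium with bFGF and EGF. Of the 3 groups of 3 libraries, the bFGF/EGF-treated NSCs stayed in that medium and were collected at day 0, the bFGF/BMP4-treated NSCs were collected at day 6 after EGF had been replaced with BMP4, and the BMP4-treated NSCs were collected at day 6 after both factors had been replaced with BMP4. Each factor was used at 20 ng/mL, cells were plated on poly-L-ornithine and laminin in bFGF/EGF medium before the change to the other media, and the labels name no modified gene. For the first medium B27 supplement without vitamin A is stated, and for the other media B27 alone. The bFGF/EGF-treated NSCs were not cultured for the additional 6 days. In both comparisons with them, the treatment, the time in culture and any difference in B27 supplement cannot be told apart. The labels do not say whether replicates came from separate isolations, and p-values measure the spread between these libraries, which may be technical.

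Glycolysis turns glucose into pyruvate in the cytosol, and hexokinase, phosphofructokinase and pyruvate kinase are its regulated steps. Pyruvate is then reduced to lactate by lactate dehydrogenase or oxidised in mitochondria by the pyruvate dehydrogenase (PDH) complex, which PDH kinases switch off. In the brain, astrocytes hold most of the glycogen and release lactate. The measurements here are RNA levels, and neither enzyme activity nor flux was measured.

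Levels are given in FPKM (fragments per kilobase of gene, scaled to library size), which allows comparison between genes, in the order of replicates 1, 2 and 3. Differences are log2 differences of FPKM + 0.1 with their standard error (SE), and a gene was called where the adjusted p-value over all 20207 genes tested was at most 0.05. A total of 15892854 to 17419822 fragments lay on genes per library. All 34 members had a mean of at least 0.1 FPKM over the 9 libraries and were tested, and Slc16a3 passed this limit narrowly with a mean of 0.105. The second BMP4 library had the largest sum of FPKM over all genes, 326302.3 against 278175.3 and 278432.8 in the other two, and was the highest of its group for 20 members, or for 13 on the TPM scale, on which every library has the same sum. Markers of NSCs (9 genes) summed to 1700 to 1840 FPKM with bFGF/EGF, 689 to 781 with bFGF/BMP4 and 1490 to 1910 with BMP4. Most of these sums came from Vim (means of 677, 166.5 and 892 FPKM) and Fabp7 (655, 272 and 484 FPKM). Nes (151, 3.55 and 15.8 FPKM) and Egfr (42.75, 6.32 and 6.34 FPKM) were below their bFGF/EGF level in both groups with BMP4. Against bFGF/EGF, 3 of the 9 were higher and 5 lower in bFGF/BMP4, and 3 were higher and 2 lower in BMP4. Astrocyte markers (8 genes, Gfap and Aqp4 among them) summed to 224 to 264, 641 to 660 and 3290 to 4180 FPKM, and those of ependymal cells (5 genes) to 7.87 to 12.4, 10.4 to 11.4 and 58.0 to 70.1 FPKM, with Tmem212 at 0 in all 9 libraries. The ependymal sums came mostly from Foxj1 (means of 8.26, 10.02 and 55.1 FPKM). Markers of neurons and neuroblasts (7 genes, mostly from Tubb3 and Map2) summed to 75.9 to 91.9, 47.6 to 53.3 and 142 to 213 FPKM, those of oligodendrocytes and their precursors (8 genes) to 9.39 to 30.7 over all libraries, those of vascular and mural cells (6 genes, Cldn5 at 0 throughout) to at most 5.41 and those of microglia (7 genes, C1qa at 0 throughout) to at most 1.75. The order of the astrocyte sums rests on Gfap (means of 0.0926, 19.4 and 2566 FPKM) and Aqp4 (0.527, 212 and 778 FPKM). Against bFGF/EGF, 7 of the 8 astrocyte markers were higher and Aldh1l1 was lower in either group with BMP4. Of all genes tested, 25.0% were higher and 23.6% lower in bFGF/BMP4, and 29.6% and 25.3% in BMP4. From bFGF/BMP4 to BMP4, 3 astrocyte markers were higher (Gfap, Aqp4 and Aldh1l1), 2 were lower (Slc1a2 and Gjb6) and 3 were not called, with a median log2 difference of -0.14. There, 12.2% of all genes tested were higher and 8.89% lower. The part of cell composition in the members' results was not tested. In bulk RNA, fewer cells of a type and less RNA per cell cannot be told apart.

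Compared with the bFGF/EGF libraries, 16 members were higher and 3 (Slc2a3, Hk2 and Ldha) were lower in the bFGF/BMP4 libraries, with 15 not called. These are 47.1% and 8.82% of the members, against 25.0% and 23.6% of all genes tested. With a fold change of at least 2 required as well, 12 were higher and 1 was lower (35.3% and 2.94%, against 16.5% and 14.1% of all genes). The libraries of both groups did not overlap for 21 members (61.8%, against 57.7% of all genes), and the median log2 difference was 0.42 over the members and 0.06 over all genes. Without the first bFGF/BMP4 library, 5 members were lower.

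The BMP4 libraries differed from the bFGF/EGF libraries for more members, with 20 higher, 2 lower (Hk2 and Pdk3) and 12 not called. The shares were 58.8% and 5.88%, against 29.6% and 25.3% of all genes. At 2-fold, 16 were higher and 1 was lower (47.1% and 2.94%, against 21.3% and 15.4%). The groups did not overlap for 25 members (73.5%, against 60.4% of all genes), and the median log2 difference was 0.60, against 0.10 over all genes. Without the second BMP4 library, and likewise on the TPM scale, 4 members were lower, Pkm and Ldha being added.

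Between the groups that both received BMP4, 11 members were higher and 6 lower with BMP4 than with bFGF/BMP4, while 17 were not called. These were 32.4% and 17.6% of the members, against 12.2% and 8.89% of all genes. With the 2-fold limit, 7 were higher and 1 was lower (20.6% and 2.94%, against 8.41% and 5.14%). For 22 members the groups did not overlap (64.7%, against 38.7% of all genes), and the median log2 difference was 0.29, against 0.00 over all genes. The 6 lower calls were Hk2, Eno1, Pkm, Pdk3, Pygm and Gys1, and 4 of them (Hk2, Pkm, Pdk3 and Gys1) were lost when single libraries were left out. Without the third bFGF/BMP4 or the third BMP4 library 2 members were lower, and without the second bFGF/BMP4 or the first BMP4 library 3 were. Each pair of comparisons shares a group of libraries.

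The first step here means bFGF/BMP4 against bFGF/EGF, and the second step BMP4 against bFGF/BMP4. The groups with BMP4 were separate cultures, both collected at day 6, so the steps are an order of presentation and not of time. Across the 3 groups, 5 members were higher in bFGF/BMP4 than in bFGF/EGF and higher still in BMP4: Slc2a1, Ldhb, Pdk1, Pdk4 and Pygb. Another 8 were higher in both BMP4-containing groups with no call between these groups (Pfkl, Pfkm, Pfkfb2, Pdk2, Pdha1, Pdhb, Gbe1 and Pgm1), and 4 were higher in the BMP4 libraries than in either other group (Slc16a1, Hk1, Pfkp and Pfkfb3). Hk2 was the 1 member that fell at both steps. No call was made for 6 members in any comparison: Slc16a3 and 5 enzymes of the glycolytic chain, Aldoa, Tpi1, Gapdh, Pgk1 and Pgam1. For Eno1, Gys1 and Pygm, the bFGF/BMP4 group was called above both others. The share of all genes tested that had each of these patterns was not counted, so the numbers describe the members only.

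**Figure D1:**
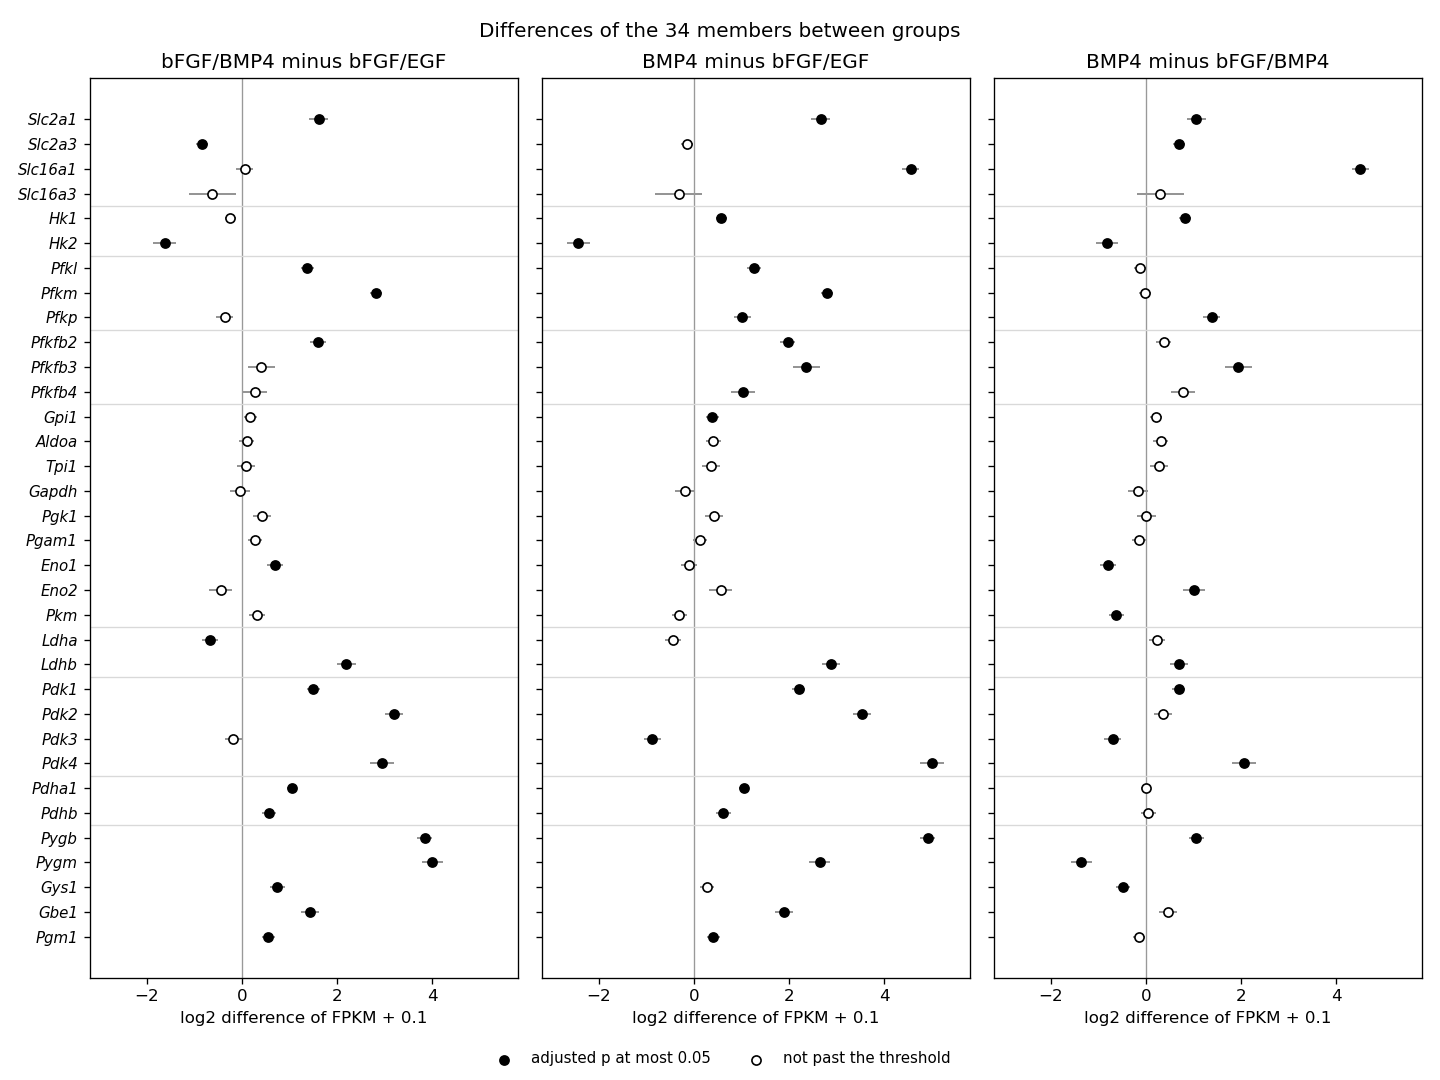
Log2 differences (x axis, FPKM + 0.1) of the 34 members (y axis, by role from transporters at the top to glycogen enzymes at the bottom) in the 3 comparisons, with bars of 1 SE. Filled points passed an adjusted p of 0.05 and open points did not. Calls to the right outnumber those to the left in each panel, 16 to 3, 20 to 2 and 11 to 6, and the 6 enzymes from Gpi1 to Pgam1 stay within 0.43 of 0.

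Sequence before the start of 5 members is shown next, chosen by hand with their differences known, for the reasons given below. Known regulators of glycolytic genes are the hypoxia-inducible factors and the E-box factors of the Myc and USF families. These factors bind short motifs that can be looked for in such sequence. The windows are the 250 bases before each RefSeq start in GRCm38.p6, an earlier build than that of the deposited table. They were read on both strands for ACGTG and GCGTG, the core of the hypoxia response element, and for CACGTG, the E-box, which holds ACGTG on either strand and is therefore counted with it. RefSeq had 48 windows for 33 members, and Slc2a3 had no entry. ACGTG was in a window of 18 of the 33 members (54.5%) and of 18.5% of the 27025 genes with a window. GCGTG was found for 21 members (63.6%) and 30.9% of all genes, and CACGTG for 6 members (18.2%) and 6.86% of all genes. Genes differ in base composition and in their number of windows, no test was made, and a match is not a site of binding. The 5 windows below run 5′ to 3′ on the strand of the gene, with every match in capitals. Ldha and Ldhb stand for the pair that moved in opposite directions, Slc16a1 for the largest difference between the groups with BMP4, and Pdk4 and Pygb for large rises from bFGF/EGF to BMP4. The windows lie at chr7:46845554-46845803, strand plus (Ldha, the upstream one of 2 starts), chr6:142507958-142508207, strand minus (Ldhb), chr3:104638414-104638663, strand plus (Slc16a1), chr6:5496279-5496528, strand minus (Pdk4) and chr2:150786546-150786795, strand plus (Pygb).
Ldha: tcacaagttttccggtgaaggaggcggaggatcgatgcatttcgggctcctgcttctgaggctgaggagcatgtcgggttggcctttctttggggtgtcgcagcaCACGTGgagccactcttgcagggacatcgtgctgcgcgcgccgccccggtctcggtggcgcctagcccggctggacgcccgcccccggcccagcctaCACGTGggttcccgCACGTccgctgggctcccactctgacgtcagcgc
Ldhb: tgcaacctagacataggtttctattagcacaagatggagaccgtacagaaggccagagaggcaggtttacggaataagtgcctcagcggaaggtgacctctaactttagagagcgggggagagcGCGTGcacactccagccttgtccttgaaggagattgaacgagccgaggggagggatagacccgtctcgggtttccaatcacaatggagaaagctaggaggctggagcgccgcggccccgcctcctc
Slc16a1: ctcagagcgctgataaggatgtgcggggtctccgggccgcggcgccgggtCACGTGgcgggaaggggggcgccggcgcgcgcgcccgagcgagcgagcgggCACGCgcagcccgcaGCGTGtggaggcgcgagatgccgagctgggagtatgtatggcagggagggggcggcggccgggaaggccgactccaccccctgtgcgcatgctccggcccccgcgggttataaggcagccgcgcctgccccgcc
Pdk4: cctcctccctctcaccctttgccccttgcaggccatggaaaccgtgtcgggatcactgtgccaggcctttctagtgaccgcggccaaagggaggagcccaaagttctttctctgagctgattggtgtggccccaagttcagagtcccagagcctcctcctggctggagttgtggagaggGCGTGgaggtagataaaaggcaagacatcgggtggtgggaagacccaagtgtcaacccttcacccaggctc
Pygb: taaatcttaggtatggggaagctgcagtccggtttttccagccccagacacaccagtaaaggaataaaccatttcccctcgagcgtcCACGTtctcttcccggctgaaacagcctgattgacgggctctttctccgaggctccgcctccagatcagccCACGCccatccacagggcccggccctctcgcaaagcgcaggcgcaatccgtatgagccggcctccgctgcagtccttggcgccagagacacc
The Ldha window holds 2 copies of CACGTG and 1 further ACGTG, and that of Slc16a1 holds 1 CACGTG and 2 GCGTG. The other Ldha window, at chr7:46846832-46847081, holds 1 GCGTG and neither ACGTG nor CACGTG, which are the counts of the Ldhb window. The windows of Ldhb and Pdk4 hold 1 GCGTG each and no ACGTG, and the Pygb window holds 1 of each core.

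Glucose and lactate transporters differed from each other in their patterns. Slc2a1 encodes GLUT1, the glucose transporter of astrocytes and of the blood-brain barrier. Its level was 11.1, 10.9 and 6.49 FPKM in the bFGF/EGF libraries, 26.4, 31.0 and 28.1 in the bFGF/BMP4 libraries and 55.4, 69.7 and 53.9 in the BMP4 libraries. None of the groups overlapped, and Slc2a1 rose by 1.62 ± 0.20 (SE) on the log2 scale at the first step (adjusted p = 0.00011) and by 1.06 ± 0.20 at the second (adjusted p = 0.0040). The BMP4 mean was 6.29-fold that of the bFGF/EGF libraries. Slc2a3 encodes GLUT3, the high-affinity transporter typical of neurons, and had its lowest level in the bFGF/BMP4 group. It stood at 3.83, 3.99 and 4.22 FPKM, then 2.23, 2.09 and 2.29, then 3.89, 3.59 and 3.46. The first and the last group overlapped, and both were above the bFGF/BMP4 group, from which the bFGF/EGF libraries differed with adjusted p = 0.00048 and the BMP4 libraries with adjusted p = 0.0036.

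The largest difference between the groups with BMP4 was that of Slc16a1 (ENSMUSG00000032902, chr3:104545811-104565780 in GRCm39), which encodes MCT1, a proton-coupled carrier of lactate, pyruvate and ketone bodies. The bFGF/EGF libraries had 19.6, 19.2 and 17.6 FPKM, the bFGF/BMP4 libraries 16.7, 22.5 and 20.1, and the BMP4 libraries 457, 560 and 345. The first 2 groups overlapped, with a log2 difference of 0.06 ± 0.18 (adjusted p = 0.81), while every BMP4 library was far above both. BMP4 exceeded bFGF/BMP4 23.0-fold in the means, or by 4.50 ± 0.18 on the log2 scale (adjusted p = 1.2e-06). Slc16a3 encodes MCT4, the carrier associated with lactate export from glycolytic cells. It stood at 0.0221 to 0.255 FPKM, from 2 to 24 fragments per library, with overlapping groups in every comparison. At this depth no difference was detectable, and exons of Slc16a3 overlap those of Csnk1d on the opposite strand (34.2 FPKM), from which it cannot be separated without strand information.

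**Figure D2:**
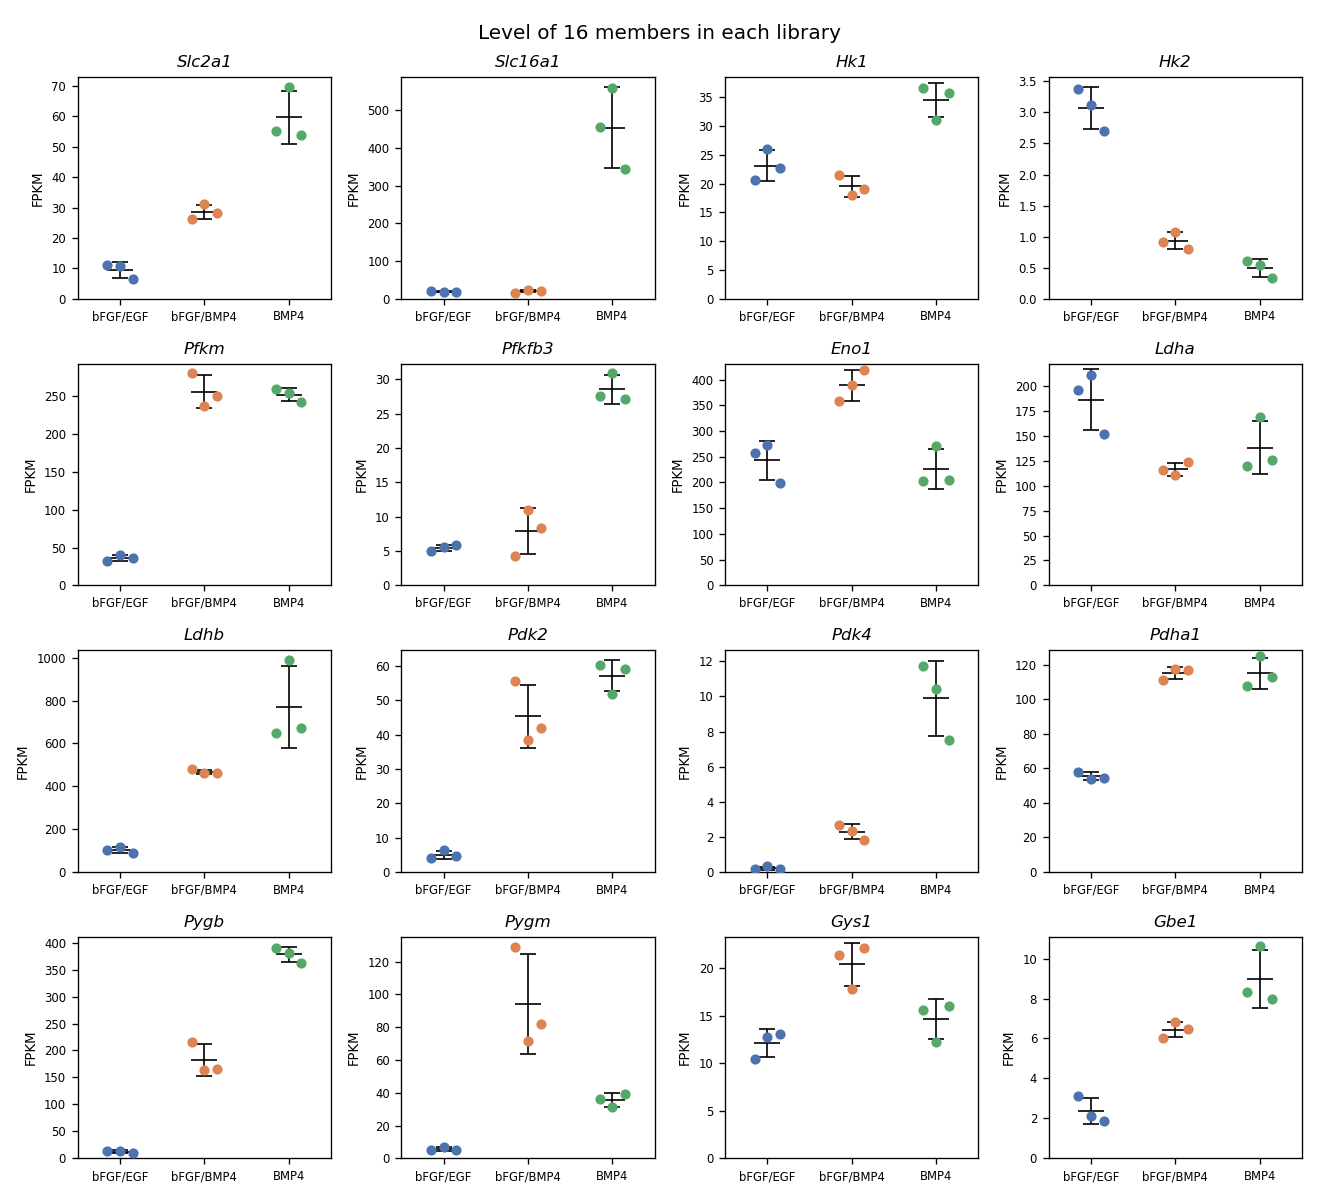
Level in FPKM (y axis, linear, starting at 0) of 16 members in the 3 libraries of each group (x axis), with points for libraries and bars for the mean and 1 SD. Slc16a1 lies between 16.7 and 22.5 FPKM in 6 libraries and between 345 and 560 in the 3 BMP4 libraries, Pfkm rises to the same range in both groups with BMP4, and Pygm and Eno1 have their highest values in the bFGF/BMP4 libraries.

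Hexokinases, which trap glucose as glucose 6-phosphate, divided into a form that rose and a form that fell. Hk1, the form that most cells use at all times, had 20.7, 26.04 and 22.7 FPKM with bFGF/EGF, 21.5, 18.0 and 19.0 with bFGF/BMP4, and 36.6, 31.1 and 35.8 with BMP4. The BMP4 libraries lay above all others (1.77-fold over bFGF/BMP4, adjusted p = 0.0011), and the first 2 groups overlapped. Hk2, the inducible form associated with growth and with tumours, had 3.38, 3.12 and 2.70 FPKM, then 0.918, 1.08 and 0.809, then 0.609, 0.548 and 0.335. The groups were separate at both steps, with a fall of the mean to 0.305 of the bFGF/EGF level (log2 difference -1.62 ± 0.24, adjusted p = 0.00035) and then to 0.162 of it. The second step (-0.82 ± 0.24, adjusted p = 0.036) was lost when any 1 of 7 libraries was left out, with adjusted p from 0.051 to 0.13. Hk1 made up 88.2% ± 1.93 (SD, n = 3) of the summed hexokinase FPKM with bFGF/EGF, 95.4% ± 0.915 with bFGF/BMP4 and 98.6% ± 0.440 with BMP4.

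Phosphofructokinase catalyses the committed step of glycolysis, and its muscle form had the largest change. Pfkm (ENSMUSG00000033065, chr15:97990451-98031417) had 32.3, 40.7 and 36.0 FPKM in the bFGF/EGF libraries, 281, 238 and 251 in the bFGF/BMP4 libraries and 260, 254 and 243 in the BMP4 libraries. It rose 7.06-fold (log2 2.82 ± 0.13, adjusted p = 1.9e-07) and 6.94-fold (2.80 ± 0.13, adjusted p = 1.4e-07) over bFGF/EGF, and the 2 groups with BMP4 overlapped. Pfkl, the liver form, went from 5.14 to 7.06 FPKM in the bFGF/EGF libraries to 14.98 to 18.5 and 14.5 to 15.8, a rise of 2.61-fold and 2.40-fold with no call between the groups with BMP4. Pfkp, the platelet form, was at 5.90 to 7.45, 4.26 to 6.16 and 11.8 to 15.5 FPKM, and was higher in the BMP4 libraries than in either other group (2.05-fold over bFGF/EGF and 2.63-fold over bFGF/BMP4, adjusted p = 0.00072 and 0.00036). Without the first bFGF/BMP4 library, Pfkp was also lower in that group than in bFGF/EGF (log2 difference -0.52, adjusted p = 0.035). On the opposite strand, exons of Pfkp overlap Pitrm1 (20.9 FPKM), those of Pfkl overlap Cfap410 (2.51 FPKM) and those of Pfkm overlap Senp1 (4.595 FPKM). The 3 genes together summed to 49.0 ± 4.42, 278 ± 24.8 and 281 ± 10.1 FPKM (SD, n = 3), and the share of Pfkm went from 74.0% ± 1.95 to 92.3% ± 0.498 and 89.9% ± 0.248.

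The bifunctional PFKFB enzymes make and degrade fructose 2,6-bisphosphate, the activator of phosphofructokinase. Pfkfb2, the heart form, rose in both groups with BMP4, from 1.86 to 2.71 FPKM to 6.46 to 7.53 and 8.04 to 10.1 (3.09-fold and 4.01-fold, adjusted p = 3.0e-05 and 5.1e-06). Pfkfb3, the form with the highest kinase activity, had 5.002, 5.64 and 5.86 FPKM with bFGF/EGF, 4.30, 11.01 and 8.33 with bFGF/BMP4, and 27.6, 31.0 and 27.1 with BMP4. It was the BMP4 group that stood apart (3.62-fold over bFGF/BMP4, log2 1.94 ± 0.28, adjusted p = 0.00071), while the bFGF/BMP4 libraries spread around the bFGF/EGF level. The first bFGF/BMP4 library decides the latter: without it the log2 difference between these groups was 0.79 in place of 0.41, and adjusted p = 0.0030 in place of 0.25. Pfkfb4, the testis form, was at 0.859 to 1.05, 0.934 to 1.42 and 1.42 to 2.55 FPKM and rose from bFGF/EGF to BMP4 (2.21-fold, adjusted p = 0.0063). Its difference between the groups with BMP4 (log2 0.77 ± 0.25, adjusted p = 0.060) passed the threshold without the first bFGF/BMP4 library (adjusted p = 0.049) or without the third BMP4 library (adjusted p = 0.023). Summed over the 3 genes, the level was 8.67 ± 0.711, 16.0 ± 2.81 and 39.6 ± 1.98 FPKM (SD, n = 3).

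The enzymes from Gpi1 to Pkm changed less, and 8 of these 9 were not called in each comparison with bFGF/EGF. Of all genes tested, 25.0% were higher and 23.6% lower in bFGF/BMP4, and 29.6% and 25.3% in BMP4. Gpi1, which isomerises glucose 6-phosphate, was at 80.2 to 102, 96.8 to 108 and 110 to 130 FPKM, with a call from bFGF/EGF to BMP4 only (1.31-fold, log2 0.39 ± 0.13, adjusted p = 0.026). That call was lost without the first or the third bFGF/EGF library or the second BMP4 library (adjusted p 0.064 to 0.084). Aldoa, the main aldolase of muscle and of dividing cells, was at 208 to 269, 234 to 254 and 274 to 366 FPKM. Its difference between BMP4 and bFGF/EGF had adjusted p = 0.057, and adjusted p = 0.025 without the second bFGF/EGF library. This difference also passed on the TPM scale (adjusted p = 0.021), with limma-voom on fragment numbers (0.025) and with a limit of 1 FPKM on low genes (0.044). Tpi1 (triose phosphate isomerase) ranged over all libraries from 80.5 to 157 FPKM, Pgk1 (the first ATP-producing step) from 223 to 445 and Pgam1 (phosphoglycerate mutase) from 172 to 264. For Tpi1 and Pgam1 the groups overlapped in every comparison. Pgk1 was above every bFGF/EGF library in both other groups with log2 differences of 0.42 ± 0.19 and 0.43 ± 0.19 that missed the threshold (adjusted p = 0.096 and 0.080). Without the second BMP4 library, the first of these had adjusted p = 0.031, and on the TPM scale both passed (adjusted p = 0.018 and 0.033). Without the second bFGF/EGF library, Tpi1 was called from bFGF/EGF to BMP4 (log2 0.51, adjusted p = 0.049).

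Gapdh, usually among the most abundant transcripts, was listed at only 2.29 to 3.62 FPKM, from 144 to 264 fragments per library. The table holds 173 genes of which a transcript matched Gapdh at 90% identity or more over at least 300 bases, and 169 of them are pseudogenes. Together these genes were at 40.0 to 71.7 FPKM. The highest of them, Peli2 (mean of 11.7 FPKM), is protein-coding and held 1714 of the 2575 fragments that they averaged per library. Their sum is therefore not a measure of Gapdh reads alone. Reads of Gapdh can be divided among such copies or dropped, and exons of Iffo1 (10.4 FPKM) lie on the opposite strand, so the listed level and its lack of a called difference are uncertain. The copies of the other enzymes weighed less, with summed levels of at most 42.2 FPKM for the 6 genes like Eno1 and 27.1 FPKM for the 2 like Tpi1.

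Eno1 and Pkm, at the lower end of the pathway, had their highest values in the bFGF/BMP4 libraries. Eno1, the enolase of glia and dividing cells, had 258, 272 and 199.5 FPKM in the bFGF/EGF libraries, 358, 390 and 419 in the bFGF/BMP4 libraries and 203, 271 and 206 in the BMP4 libraries. The middle group lay above both others, 1.60-fold over bFGF/EGF (log2 0.69 ± 0.17, adjusted p = 0.0084) and with BMP4 at 0.582 of it (-0.79 ± 0.17, adjusted p = 0.0091). Pkm, the pyruvate kinase whose M1 and M2 products cannot be told apart in values per gene, was at 261 to 340, 366 to 387 and 215 to 283 FPKM, and it shares exons with the unverified transcript Gm49759 (9.77 FPKM). Pkm was lower in BMP4 than in bFGF/BMP4 (0.653 of it, log2 difference -0.62 ± 0.16, adjusted p = 0.018), and this call was lost without the second or the third bFGF/BMP4 library or the first or the third BMP4 library (adjusted p 0.058 to 0.070). Without the second BMP4 library, Pkm was also lower in BMP4 than in bFGF/EGF (log2 difference -0.42, adjusted p = 0.038, against -0.31 and 0.13). On the TPM scale Pkm was called in both comparisons with bFGF/EGF, higher in bFGF/BMP4 (0.30, adjusted p = 0.018) and lower in BMP4 (-0.39, adjusted p = 0.0043). Eno2, the neuronal enolase, stood at 0.838 to 2.30 FPKM and at most 1.06% of the summed enolase FPKM in every library. It was higher in BMP4 than in bFGF/BMP4 (2.05-fold, adjusted p = 0.013), a call lost without the third bFGF/BMP4 library (adjusted p = 0.053). Eno2 was called lower in bFGF/BMP4 than in bFGF/EGF without the first bFGF/BMP4 library (log2 difference -0.64, adjusted p = 0.048). The 16 enzymes from hexokinase to lactate dehydrogenase summed to 1791 ± 246, 2686 ± 68.7 and 2820 ± 473 FPKM (SD, n = 3). Both groups with BMP4 lay above bFGF/EGF in every library, 1.5-fold and 1.57-fold in the means (exact permutation test, two-sided, p = 0.10, which is the smallest p that 3 against 3 libraries allow). Without both lactate dehydrogenases, the ratios of the summed level of the other 14 were 1.40 and 1.27 (1.39 and 1.20 on the TPM scale). In BMP4, the sum of all 16 was 1.05 of that in bFGF/BMP4, and the sum of the 14 was 0.91 of it, with overlapping libraries. On the TPM scale these ratios were 0.99 and 0.86, and for the 14 every BMP4 library (6329 to 6760) was below every bFGF/BMP4 library (7365 to 7695). Among the 16, Ldhb (means of 102, 468 and 769 FPKM) and Pfkm (36.3, 256 and 252 FPKM) gained the most over bFGF/EGF. The 16 do not include the aldolase gene Aldoc (53.0, 209 and 498 FPKM), and Gapdh enters at its uncertain level.

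**Figure D3:**
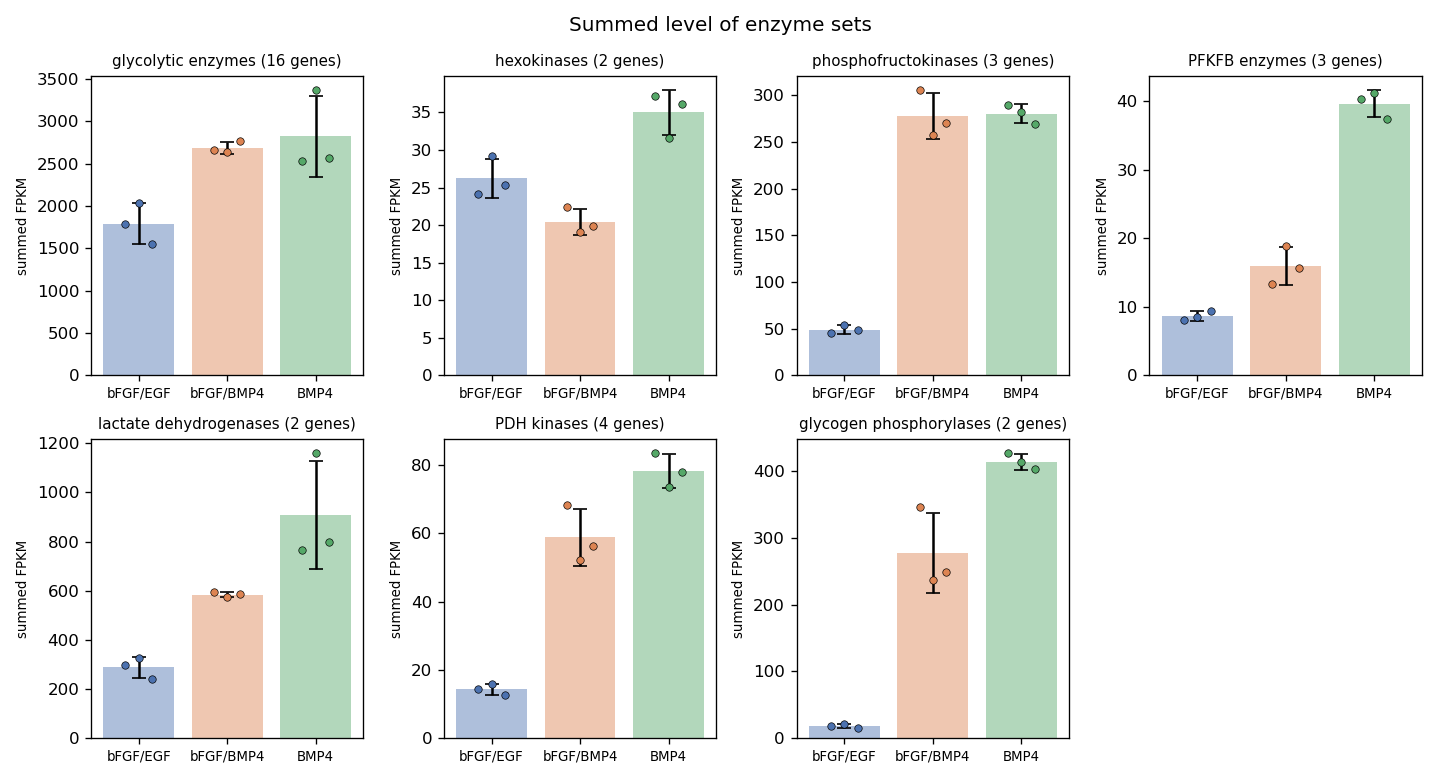
Summed FPKM (y axis, starting at 0) of 7 enzyme sets in each group (x axis), with points for the libraries, bars for the mean and error bars of 1 SD (n = 3). The glycolytic enzymes sum to means of 1791, 2686 and 2820 FPKM, the phosphofructokinases reach 278 and 281 FPKM in both groups with BMP4, and the glycogen phosphorylases go from 18.3 to 277 and 414 FPKM.

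Lactate dehydrogenase is a tetramer of A subunits, which favour lactate formation, and B subunits, which favour its oxidation, and the gene with the higher level was Ldha with bFGF/EGF and Ldhb in both groups with BMP4. Ldha had 196, 212 and 152 FPKM in the bFGF/EGF libraries, 116, 111 and 124 in the bFGF/BMP4 libraries and 120, 169 and 126 in the BMP4 libraries. It was lower in bFGF/BMP4 than in bFGF/EGF (0.625 of it, log2 difference -0.67 ± 0.17, adjusted p = 0.0089), and the BMP4 libraries overlapped both other groups. The difference of BMP4 from bFGF/EGF (-0.44 ± 0.17, adjusted p = 0.053) passed the threshold without the third bFGF/EGF library (adjusted p = 0.018) or the second BMP4 library (adjusted p = 0.010), and on the TPM scale (adjusted p = 0.0024). Ldhb (ENSMUSG00000030246, chr6:142435672-142454586) was at 100.2, 117 and 90.01 FPKM, then 479, 462 and 462, then 647, 990 and 671, with no overlap between any groups. It rose 4.57-fold at the first step (log2 2.20 ± 0.19, adjusted p = 1.0e-05) and 1.65-fold at the second (0.69 ± 0.19, adjusted p = 0.026), and the second call was lost without the first bFGF/EGF library or any 1 of the bFGF/BMP4 libraries (adjusted p 0.050 to 0.082). Ldha made up 66.2%, 64.4% and 62.9% of the summed FPKM of both genes in the bFGF/EGF libraries, 19.4%, 19.4% and 21.1% in the bFGF/BMP4 libraries and 15.6%, 14.6% and 15.8% in the BMP4 libraries. The second BMP4 library, which had the highest values of both genes, had no outlying share.

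Among 66 differences in the share of a gene within its family, each tested with an exact permutation test over libraries (two-sided), 52 reached p = 0.10, the smallest possible, or 0.127 after Benjamini-Hochberg adjustment. No share could therefore pass a threshold of 0.05 in this design, and the shares are given as values. For a pair such as Ldha and Ldhb the shares mirror each other, so each such difference was counted under both genes. The lactate dehydrogenase and PDH kinase families had the largest shifts, of 49.1 percentage points for Ldha and 48.8 for Pdk3 from bFGF/EGF to BMP4.

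**Figure D4:**
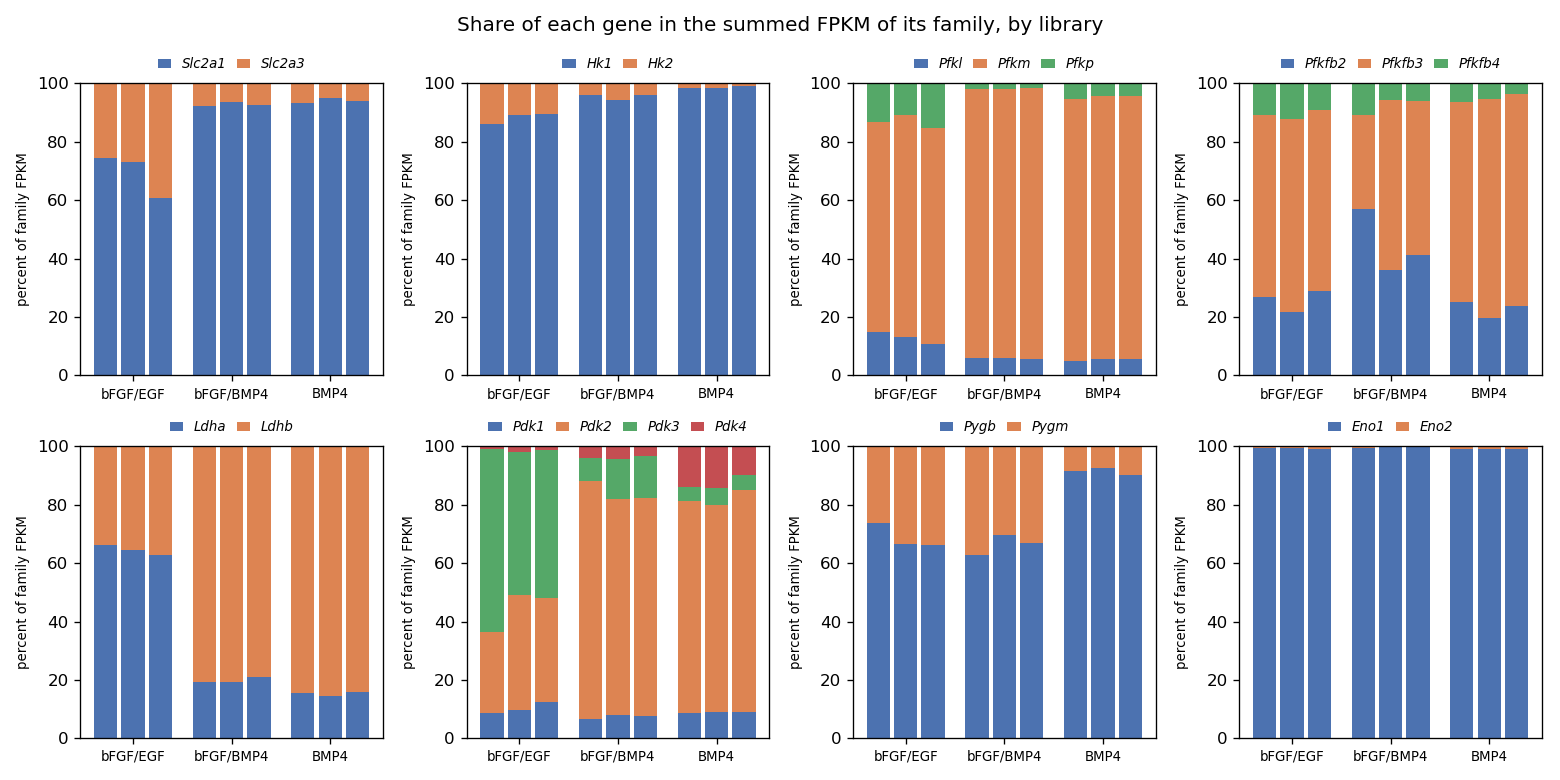
Percent of the summed FPKM of a family (y axis) that each member took in each of the 9 libraries (x axis, 3 bars per group), for 8 families. Ldha goes from 62.9-66.2% to 14.6-15.8% of its pair, Pdk3 from 49.1-62.7% to 4.79-5.94% of the PDH kinases, and Pfkfb2 has its largest share, 35.9-56.8%, in the bFGF/BMP4 libraries.

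PDH kinases phosphorylate and inactivate the E1 subunit of the PDH complex, and 3 of the 4 genes were higher than with bFGF/EGF in either group with BMP4. Of all genes tested, 25.0% were higher in bFGF/BMP4 and 29.6% in BMP4. Pdk4, which is induced by fasting and by fatty acids in many tissues, had 0.151, 0.306 and 0.177 FPKM in the bFGF/EGF libraries, 2.69, 2.34 and 1.82 in the bFGF/BMP4 libraries and 11.7, 10.4 and 7.53 in the BMP4 libraries. No groups overlapped, and the means rose 10.8-fold and then 4.33-fold (log2 2.95 ± 0.25 and 2.06 ± 0.25, adjusted p = 1.1e-05 and 0.00031). From bFGF/EGF to BMP4, the means of Pdk4 differed 46.8-fold (log2 5.01 ± 0.25), and the bFGF/EGF level rests on 9 to 17 fragments per library. With a pseudocount of 1 this log2 difference was 3.15, below that of Pygb (4.81) and Slc16a1 (4.50). Pdk2, the most widely expressed PDH kinase, was at 3.94, 6.32 and 4.53, then 55.7, 38.5 and 41.8, then 60.4, 52.0 and 59.2 FPKM. It was 9.20-fold and 11.6-fold higher than in bFGF/EGF in the groups with BMP4, which overlapped each other (adjusted p = 0.24). Exons of Pdk2 overlap those of Samd14 (13.7 FPKM) on the opposite strand. Pdk1, known as a target of the hypoxia-inducible factors, rose at both steps, from 1.25-1.60 FPKM to 4.11-4.54 and 6.68-7.36 (2.95-fold and then 1.63-fold, adjusted p = 1.6e-05 and 0.0055). Pdk3 moved the other way, at 6.45 to 8.98, 5.37 to 8.202 and 3.99 to 4.36 FPKM, with exons that overlap Pcyt1b (5.63 FPKM) on the opposite strand. Its level in BMP4 was 0.535 of bFGF/EGF (adjusted p = 0.0020) and 0.603 of bFGF/BMP4 (log2 difference -0.70 ± 0.18, adjusted p = 0.019), and the latter call was lost without the second or the third bFGF/BMP4 library or the first or the third BMP4 library (adjusted p 0.055 to 0.079). Pdk3 held 54.1% ± 7.44 (SD, n = 3) of the summed PDH kinase FPKM in the bFGF/EGF libraries, where Pdk2 held 34.1% ± 6.05. Pdk2 held 76.7% ± 4.24 with bFGF/BMP4 and 73.0% ± 2.68 with BMP4. The sum of all 4 was 14.4 ± 1.64, 58.8 ± 8.42 and 78.3 ± 4.99 FPKM.

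Both E1 subunits of the PDH complex, on which these kinases act, rose as well. Pdha1, the alpha subunit, had 58.0, 53.7 and 54.6 FPKM with bFGF/EGF, 111, 118 and 117 with bFGF/BMP4, and 108, 125 and 113 with BMP4, 2.08-fold higher in either group with BMP4 (adjusted p = 2.6e-05 and 1.8e-05). Pdhb, the beta subunit, was at 33.0 to 38.7, 50.8 to 56.6 and 47.3 to 69.0 FPKM (1.48-fold and 1.55-fold, adjusted p = 0.0088 and 0.0049), and its exons overlap Pxk (8.22 FPKM) on the opposite strand. Neither subunit was called between the groups with BMP4, where the log2 differences were 0.00 ± 0.10 for Pdha1 and 0.05 ± 0.15 for Pdhb.

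All 5 glycogen enzymes were higher in the bFGF/BMP4 than in the bFGF/EGF libraries, against 25.0% of all genes tested, and they parted between the groups with BMP4. Pygb (ENSMUSG00000033059, chr2:150628628-150673685), the brain form of glycogen phosphorylase that releases glucose 1-phosphate, belongs to the set of astrocyte markers that the study used. Its values were 13.6, 13.9 and 10.3 FPKM in the bFGF/EGF libraries, 216, 164 and 166 in the bFGF/BMP4 libraries and 390, 382 and 363 in the BMP4 libraries. No groups overlapped, with a 14.5-fold rise at the first step (log2 3.84 ± 0.15, adjusted p = 8.8e-08) and a 2.07-fold rise at the second (1.06 ± 0.15, adjusted p = 0.00081). Pygm, the muscle form, which astrocytes also express, was at 4.83, 6.995 and 5.26, then 129, 71.7 and 82.2, then 36.4, 31.1 and 39.3 FPKM. The bFGF/BMP4 libraries were the highest, 16.6-fold over bFGF/EGF (log2 4.0 ± 0.22, adjusted p = 5.9e-07), and Pygm was lower in BMP4 than there (0.378 of it, log2 difference -1.36 ± 0.22, adjusted p = 0.0016). The pair summed to 18.3 ± 2.68, 277 ± 59.8 and 414 ± 12 FPKM (SD, n = 3), and Pygb held 68.9% ± 4.22, 66.4% ± 3.52 and 91.4% ± 1.11 of it.

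The other glycogen members, Gys1, Gbe1 and Pgm1, changed less than Pygb and Pygm in each comparison. Genes of glycogen synthesis outside the members, such as Ppp1r3c described below, are not part of this statement. Gys1, the glycogen synthase of tissues other than liver, had 10.5, 12.8 and 13.1 FPKM with bFGF/EGF, 21.4, 17.9 and 22.1 with bFGF/BMP4, and 15.7, 12.2 and 16.1 with BMP4. It rose in bFGF/BMP4 (1.69-fold, log2 0.75 ± 0.15, adjusted p = 0.0021), while BMP4 overlapped bFGF/EGF. The difference between the groups with BMP4 (-0.48 ± 0.15, adjusted p = 0.043) was lost without any 1 of 6 libraries (adjusted p 0.051 to 0.15), and that between BMP4 and bFGF/EGF (0.27, adjusted p = 0.16) was called without the second BMP4 library (0.39, adjusted p = 0.042). Exons of Gys1 overlap Ruvbl2 (22.2 FPKM) on the opposite strand. Gbe1, the branching enzyme, was at 1.86 to 3.10, 6.04 to 6.82 and 7.99 to 10.7 FPKM, a rise of 2.73-fold and 3.81-fold over bFGF/EGF (adjusted p = 0.00018 and 2.1e-05). Pgm1, the phosphoglucomutase that links glycogen to glycolysis, was at 25.3 to 30.9, 40.9 to 44.2 and 34.4 to 44.9 FPKM (1.47-fold and 1.33-fold, adjusted p = 0.0055 and 0.023). The call of Pgm1 from bFGF/EGF to BMP4 was lost without the third bFGF/EGF library (log2 0.32, adjusted p = 0.077) or the second BMP4 library (0.29, adjusted p = 0.058).

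Genes next to these in metabolism were counted in 9 further lists, none of which holds a member. The genes named here had the largest called rise or fall of their list in at least 1 comparison, among genes averaging 5 FPKM or more. The counts stand against 25.0% higher and 23.6% lower of all genes tested in bFGF/BMP4 and 29.6% higher and 25.3% lower in BMP4, both from bFGF/EGF, and each list's shares follow its counts. Of 22 other glycogen genes tested, 13 were higher and 4 lower in bFGF/BMP4 than in bFGF/EGF (59.1% and 18.2%), and 10 and 4 in BMP4 (45.5% and 18.2%). Ppp1r3c, which targets protein phosphatase 1 to glycogen and so favours synthesis, had the largest rise in both, from 4.15-11.3 FPKM to 74.9-98.3 (11.3-fold, adjusted p = 9.8e-06) and 88.5-118 (12.8-fold, adjusted p = 4.6e-06). Phka1, a regulatory subunit of phosphorylase kinase, was at 6.18 to 7.06, 57.9 to 59.7 and 12.9 to 18.8 FPKM. It had the same order of groups as Pygm, with BMP4 at 0.277 of bFGF/BMP4 (adjusted p = 1.7e-05). Ppp1r3e, another glycogen-targeting subunit, had the largest fall from bFGF/EGF to bFGF/BMP4 (0.580 of it, adjusted p = 0.0036), Gaa, the lysosomal glucosidase, that to BMP4 (0.587, adjusted p = 0.00049), and Pgm2 the largest rise from bFGF/BMP4 to BMP4 (1.86-fold, adjusted p = 0.00071).

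Other glycolytic isoforms and side enzymes (15 tested) were higher for 6 genes and lower for 4 in bFGF/BMP4 (40.0% and 26.7%) and higher for 9 and lower for 5 in BMP4 (60.0% and 33.3%), both against bFGF/EGF. Fbp1, Fbp2, Galm, Tigar, Minpp1 and Pgam5 are in this list as side enzymes, so its counts and medians are not those of glycolytic isoforms alone. Aldoc, the aldolase of astrocytes, rose at both steps, from 42.1, 67.2 and 49.7 FPKM to 255, 192 and 181 and to 478, 560 and 457 (3.95-fold and then 2.38-fold, adjusted p = 2.7e-05 and 0.0013). The mean of Aldoc in the bFGF/EGF libraries was below that of Aldoa and in the BMP4 libraries above it. Minpp1, an inositol polyphosphate phosphatase that also acts on bisphosphoglycerate, had the largest fall (0.461 and 0.476 of bFGF/EGF). Among 12 other genes listed under hexose and monocarboxylate transport, 7 were higher and 4 lower in bFGF/BMP4 (58.3% and 33.3%). In BMP4, 8 were higher and 4 lower (66.7% and 33.3%). The higher counts include Ldhd in both, which encodes a lactate dehydrogenase and not a carrier. The largest rises were those of Slc2a13, the proton-myo-inositol carrier (8.36-fold and 5.13-fold, and 0.613 of bFGF/BMP4 in BMP4).

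On the oxidative side, 12 of 18 tested genes of the TCA cycle were higher and 1 was lower in bFGF/BMP4 than in bFGF/EGF (66.7% and 5.56%), and 14 were higher and 1 lower in BMP4 (77.8% and 5.56%). Sdha, of succinate dehydrogenase, had the largest rise from bFGF/EGF to BMP4 (88.6-94.9 to 199-226 FPKM, 2.25-fold). The gene that was lower in both was Idh2, the mitochondrial NADP-dependent isocitrate dehydrogenase, at 77.5 to 114, 25.97 to 30.6 and 51.5 to 61.2 FPKM (0.281 and 0.582 of bFGF/EGF). Of 12 genes of pyruvate entry and the PDH complex, 8 were higher and 1 lower in bFGF/BMP4 (66.7% and 8.33%), and 9 were higher and 1 lower in BMP4 (75.0% and 8.33%). Pdp1, the phosphatase that reverses the action of the PDH kinases, was at 3.08 to 3.42, 4.98 to 7.40 and 26.1 to 39.3 FPKM, 10.4-fold higher in BMP4 than in bFGF/EGF (adjusted p = 4.9e-07). Pdpr, the regulatory subunit of that phosphatase, rose 2.32-fold in bFGF/BMP4. The gene that fell was Pck2, mitochondrial phosphoenolpyruvate carboxykinase (0.754 and 0.448 of bFGF/EGF).

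Against bFGF/EGF, the branches that carry glycolytic intermediates into biosynthesis had more lower than higher calls. In the pentose phosphate pathway, 0 of 9 tested genes were higher and 6 were lower (66.7%) in bFGF/BMP4 than in bFGF/EGF. In BMP4, 0 were higher and 3 lower, and this lower share (33.3%) is near the 25.3% of all genes. Pgls, the lactonase of the oxidative branch, had the largest fall in both (0.523 and 0.456 of bFGF/EGF), and Tkt, transketolase, was higher in BMP4 than in bFGF/BMP4 (1.57-fold, adjusted p = 0.0067). Of 10 genes of the serine and glycerol branches, 2 were higher and 6 lower in either group with BMP4 (20.0% and 60.0%). Phgdh, the entry of serine synthesis, went from 159-202 FPKM to 36.4-41.3 (0.214, adjusted p = 4.5e-06) and 85.8-133, a rise of 2.74-fold between the groups with BMP4, and Shmt1, the cytosolic serine hydroxymethyltransferase, had the largest fall, to 0.150 and 0.0992 of its bFGF/EGF level. Gpd2, of the glycerol phosphate shuttle, rose from 7.23-8.07 FPKM to 47.9-49.6 (6.35-fold) and 17.5-24.4 (2.70-fold).

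Regulators of glycolytic genes (17 tested) were higher for 7 and lower for 4 in bFGF/BMP4 (41.2% and 23.5%), and higher for 8 and lower for 5 in BMP4 (47.1% and 29.4%), with lower shares near those of all genes. Epas1, which encodes HIF-2 alpha, was at 2.67 to 3.57, 56.1 to 70.7 and 15.04 to 20.9 FPKM, with its highest level in bFGF/BMP4 (19.7-fold over bFGF/EGF, adjusted p = 7.0e-08). Txnip, a glucose-responsive gene whose product limits glucose uptake, was at 0.163 to 1.86, 1.54 to 3.07 and 17.7 to 24.0 FPKM, with its highest level in the BMP4 libraries (9.04-fold over bFGF/BMP4, adjusted p = 0.0037). The largest falls were those of Mlx (0.610 of bFGF/EGF in bFGF/BMP4), the partner of the carbohydrate response factors, and Egln1 (0.619 in BMP4), an oxygen sensor that marks HIF proteins for degradation. Among 14 targets of the hypoxia-inducible factors outside glycolysis, 5 were higher and 3 lower in either comparison with bFGF/EGF (35.7% and 21.4%), near the shares of all genes. Vegfa was at 8.34 to 14.5, 43.9 to 51.2 and 10.5 to 14.2 FPKM, with bFGF/BMP4 alone above the others (4.47-fold over bFGF/EGF, adjusted p = 1.9e-05). Adm, adrenomedullin, fell from 21.3-35.6 FPKM to 0.242-0.308 and 0.786-2.10. Bnip3l, a mitophagy receptor, rose in both (2.47-fold and 2.99-fold). Between the groups with BMP4, where 12.2% of all genes tested were higher and 8.89% lower, each list was counted in the same way. The glycolytic isoforms and side enzymes had 5 of 15 higher and 1 lower, the transport genes 3 of 12 and 1, pyruvate entry 2 of 12 and 3, glycogen 4 of 22 and 5, and the pentose phosphate pathway 2 of 9 and 0. The serine and glycerol branches had 1 of 10 higher and 2 lower, the TCA cycle 2 of 18 and 0, the regulators 2 of 17 and 4, and the HIF targets 3 of 14 and 3, so that the higher shares of the TCA cycle (11.1%) and the regulators (11.8%) were near that of all genes. Median log2 differences of the lists from bFGF/EGF to bFGF/BMP4 and to BMP4 were 0.74 and 2.02 for glycolytic isoforms and side enzymes, 0.84 and 0.93 for transport, 0.78 and 0.84 for pyruvate entry, 0.64 and 0.50 for glycogen and 0.50 and 0.57 for the TCA cycle. They were -0.65 and -0.26 for the pentose phosphate pathway, -1.21 and -0.68 for serine and glycerol, -0.02 and 0.23 for regulators and -0.02 and 0.29 for HIF targets, against 0.06 and 0.10 over all genes.

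**Figure D5:**
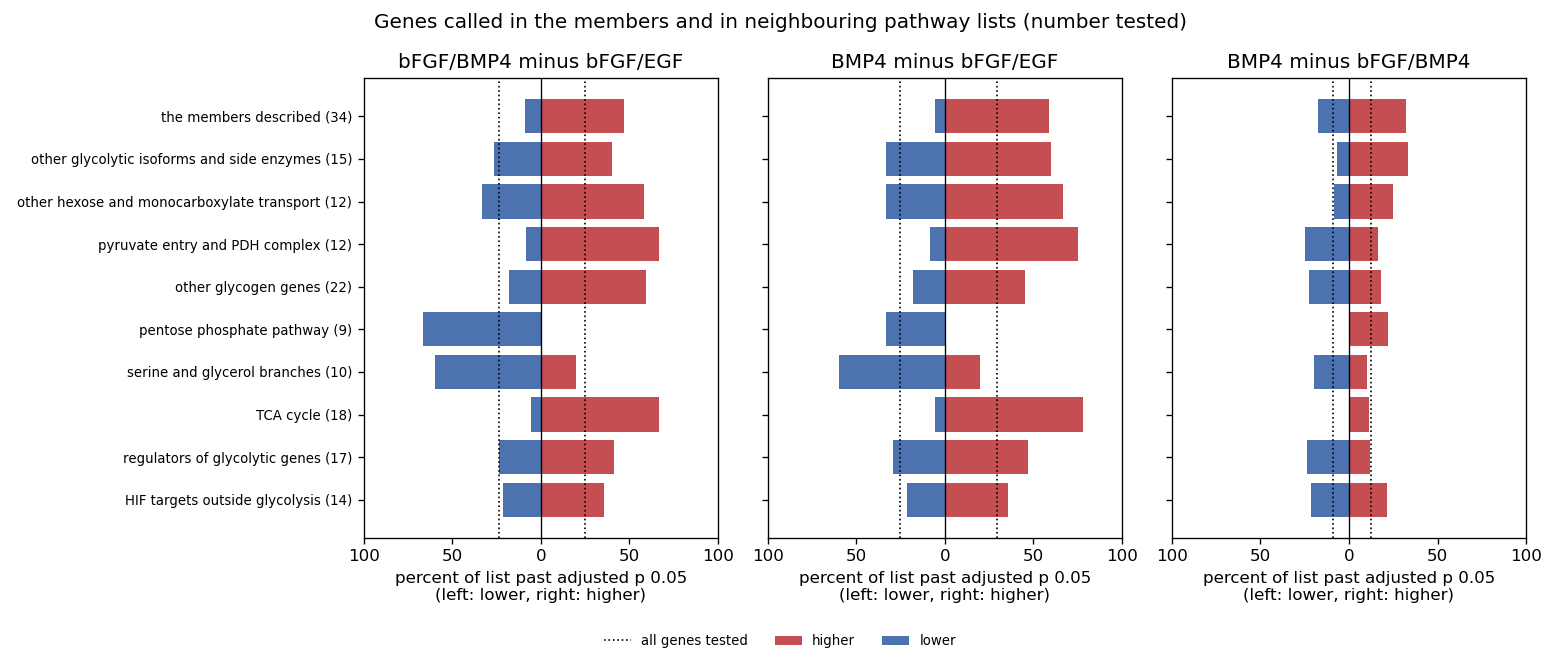
Percent of the tested genes of each list (y axis, number tested in brackets) that passed an adjusted p of 0.05 as higher (right, red) or lower (left, blue) in the 3 comparisons, with dotted lines at the percent of all genes tested. The TCA cycle list lies to the right, 12 and 14 of 18 genes against bFGF/EGF, and the pentose phosphate and serine lists lie to the left in the same 2 comparisons, while between the groups with BMP4 the pentose phosphate list has 2 of 9 genes on the right and 0 on the left.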

How the data were processed

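RNA-seq covered 9 libraries, 3 for each of bFGF/EGF, bFGF/BMP4 and BMP4, grouped by the labels. Per the labels, the authors used fastp 0.19.7, HISAT2 2.0.5 and featureCounts 1.5.0-p3 with mm39, and they deposited FPKM values. How FPKM were computed, the strand setting, the treatment of multiply mapped reads and the annotation release are not given in the sources used here. Whole fragment numbers were rebuilt from the FPKM values for all 30860 genes above 0 (each within 0.001 of a whole number). Of 55414 Ensembl identifiers, 54749 were found in GENCODE vM39 (GRCm39).

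Differences were tested in limma 3.58.1 (R 4.3.3) with a trend on log2(FPKM + 0.1), which understates the change of low genes, on the 20207 genes that averaged 0.1 FPKM or more. All 9 libraries were fitted, with Benjamini-Hochberg adjustment over all genes tested and calls at 0.05. The fit was tested on simulated data. Similar genes were found with blastn 2.17.0, and other steps used Python 3.11.15, pandas 2.3.3, numpy 2.4.6, scipy 1.17.1 and matplotlib 3.10.9. Promoter windows and motifs came from RefSeq (GRCm38.p6).

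All 34 members are named, with the called genes of the largest rise and fall in each further list (genes averaging 5 FPKM or more), except for 1 result that is not reported here. The members and all lists were chosen with earlier results of these data known. Alternatives changed the pseudocount to 1, the limit on low genes to none or 1 FPKM, and the scale to TPM or median ratios, replaced the fit with limma-voom on whole fragments, added the replicate number as a block, fitted the compared groups alone, dropped each library once and used, for sums and shares, fragments not divided by gene length. The TPM scale for the sums was added after the data were seen.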

Additional observations from a re-analysis of the deposited data

How the results depend on the processing

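Of 1725 values of the members' 102 differences under 17 alternatives, 1654 kept their side of the threshold, 41 were lost calls, 30 were gained calls and 0 reversed, and in 17 a difference that passed in neither fit changed sign. Of 58 called differences, 50 were kept under every alternative, and the other 8 are those of Gpi1 and Pgm1 (BMP4 against bFGF/EGF) and of Hk2, Eno2, Pkm, Ldhb, Pdk3 and Gys1 (BMP4 against bFGF/BMP4). When single libraries were dropped, the members higher and lower numbered 16 to 17 and 3 to 5 in bFGF/BMP4 against bFGF/EGF (5 without the first bFGF/BMP4 library), 19 to 22 and 2 to 4 in BMP4 against bFGF/EGF (4 without the second BMP4 library), and 9 to 12 and 2 to 6 in BMP4 against bFGF/BMP4 (2 without the third bFGF/BMP4 or the third BMP4 library, 3 without the second bFGF/BMP4 or the first BMP4 library). On the TPM scale, 4 members were lower in BMP4 than in bFGF/EGF in place of 2, the added ones being Pkm and Ldha. The ratio of the summed glycolytic enzymes over bFGF/EGF was 1.28 (bFGF/BMP4) and 1.30 (BMP4) with fragment numbers not divided by gene length, as a long transcript then weighs more, and 1.40 to 1.61 and 1.42 to 1.69 with 1 library left out. That between the groups with BMP4 was 1.05, and 0.948 to 1.10 with 1 library left out. Without both lactate dehydrogenases it was 0.91. Of 462 values of the share differences, with those of gene pairs counted under both genes, 34 moved by more than the spread between replicates and 0 changed sign. The fit with a replicate block gave the same 6 counts of calls (16, 3, 20, 2, 11 and 6), and deviations of libraries with the same number correlated at -0.084 to 0.125, so the numbers were not taken as pairs. Low levels limit Slc16a3, and copies limit Gapdh.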
